A study of Mus musculus with 8 samples.

Results

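A set of 10 genes of bone morphogenetic protein (BMP) signalling was followed in sorted mouse hair follicle stem cells. They are the ligand genes Bmp2, Bmp4, Bmp6 and Bmp7, the receptor genes Bmpr1a and Bmpr2, the genes of the secreted antagonists noggin (Nog), gremlin 1 (Grem1) and follistatin (Fst), and Bambi, which encodes a pseudoreceptor. The genes were taken by symbol, with no threshold on their values, from tables that together hold 28793 gene symbols. The list itself was chosen with earlier results of these data known. All 10 were found in both tables, with 1 row each. Of the 8 samples of the series, 4 RNA sequencing libraries were used, 1 per group. The other 4 samples, from chromatin immunoprecipitation, are not analysed here.

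The first pair of libraries came from female C57BL6/129Sv mice of postnatal day 99 that carried K15CrePGR, a hormone-inducible Cre recombinase driven by the Krt15 promoter, and the reporter Rosa-YFPfl/stop/fl. The group labelled Het had 1 intact and 1 floxed copy of Ctnnb1, the gene of β-catenin (Ctnnb1+/fl), and the group labelled cKO had 2 floxed copies (Ctnnb1fl/fl). Cre and reporter were thus present in both groups. The labels place this pair both in telogen, the resting phase, and at the onset of anagen, the growth phase. The second pair came from male C57BL6 mice of day 24, passing from telogen to anagen, in which 1 copy of the Wnt target gene Axin2 carried LacZ (Axin2LacZ/+). Bulge stem cells were sorted by LacZ activity, so both libraries shared the reporter allele. How many mice went into a library, any inducer of Cre and the efficiency of deletion are not stated in the sources used here.

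BMPs are secreted dimers that bring together type I and type II receptors on the cell surface. The receptors phosphorylate SMAD1, SMAD5 and SMAD9, which enter the nucleus with SMAD4 and raise response genes such as those of the Id family. Secreted antagonists bind the ligands and keep them from the receptors. In hair follicles, BMP signals hold bulge stem cells at rest through telogen, and Noggin and other inhibitors favour entry into anagen.

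Values are FPKM, a fragment count divided by the length of the transcript and by the size of the library, so levels of different genes can be compared within a library. The tables hold no read counts, and the depth of the libraries is unknown. With 1 library per group there is no replicate error and no test, and every difference below describes these libraries alone. The measure of difference was the log2 ratio of FPKM + 1, for genes that reached 1 FPKM in at least 1 library of the pair; a value of 1 or more, or -1 or less, was called a 2-fold difference. All 10 genes reached that minimum in both pairs, Bmp4 and Bmp6 in the first pair through the Het-labelled library alone. In sorted bulk populations, fewer cells of a type and less RNA per cell cannot be told apart.

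Ctnnb1 had 370 FPKM under the cKO label against 251 under the Het label. A value over the whole gene does not resolve the floxed part and does not check the genotype, so the libraries are called by their labels. Axin2 was at 2.12 and 16.3 FPKM in that pair and at 19.0 and 9.10 in the LacZ pair (positive first), the latter in the direction of the sort. The bulge markers Cd34, Sox9, Lhx2 and Itga6 were present in every library, the lowest value being 73.3 FPKM for Sox9. Krt15 was between 5951 and 7528 FPKM in 3 libraries and listed at 0 in LacZ-negative cells, where an exact 0 may be a failed estimate. In the LacZ pair, the median difference of the 9252 genes with both values at 5 FPKM or more was -0.17, so differences relative to that median are given too. In the first pair the median was 0.07.

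In every library Grem1 and Fst stood above all 4 ligand genes, and Nog did so in all but LacZ-positive cells, where Bmp7 was higher. Grem1 was the highest of the 10 genes in the cKO-labelled, Het-labelled and LacZ-negative libraries, and Fst was the highest in LacZ-positive cells. The summed level of Nog, Grem1 and Fst was 410 FPKM (cKO-labelled), 355 (Het-labelled), 184 (LacZ-positive) and 249.1 (LacZ-negative). The summed level of the 4 ligands lay between 9.38 and 18.1 FPKM, and that of Bmpr1a and Bmpr2 between 43.1 and 50.7. Without replicates, the order of neighbouring genes could not be set against a spread. Levels are also set side by side across tables that were made separately.

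**Figure D1:**
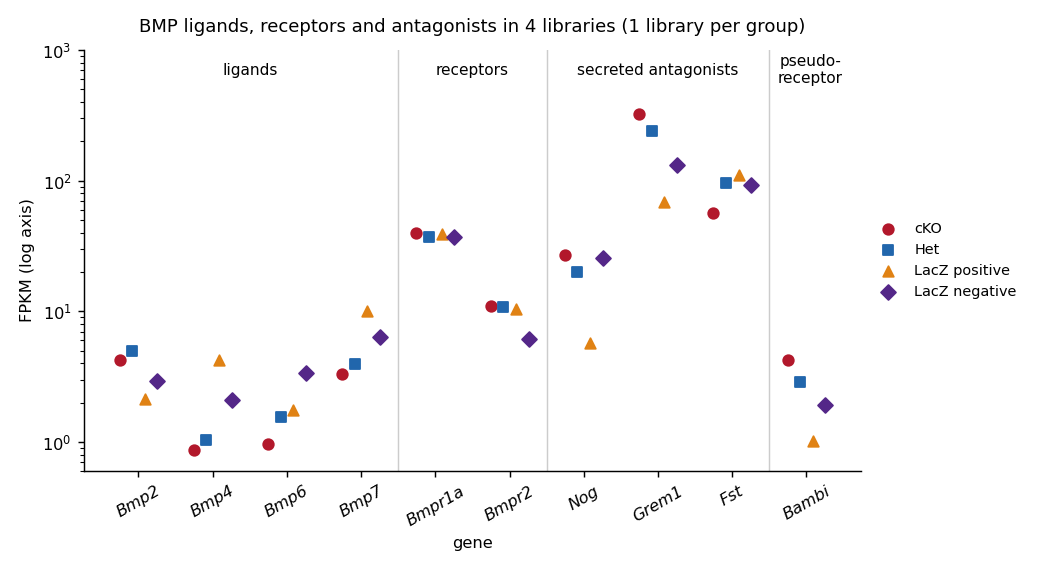
Level of each gene (FPKM, log axis) in the 4 libraries, 1 point per library, grouped by role. Grem1, Fst, Bmpr1a and Nog are the 4 highest genes in 3 libraries; Nog in LacZ-positive cells, at 5.70 FPKM, lies apart from its other 3 values of 19.8 to 27.2.

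Noggin, which binds BMP2, BMP4 and BMP7 with high affinity, was the product of the single gene of the 10 with a 2-fold difference in either pair. Of all genes measured, 1.80% were 2-fold higher and 2.29% lower in the cKO-labelled library, and 4.67% were higher and 2.60% lower in LacZ-positive cells. Nog (ENSMUSG00000048616, mm9 chr11:89161951-89163873) had 5.70 FPKM in LacZ-positive cells against 25.4 in LacZ-negative ones, which was 4.46 times as much. The cKO-labelled library had 27.2 FPKM and the Het-labelled one 19.8. Among the 4 libraries the lowest value was that of LacZ-positive cells, and the other values lay between 19.8 and 27.2 FPKM. Within the LacZ pair alone, a low positive value and a high negative one cannot be told apart. The log2 difference was -1.98 in the LacZ pair, or -1.81 relative to the median, and 0.43 in the first pair. Of 13283 genes measured in the LacZ pair, 77 had a lower value than Nog. No other gene shares its interval in the tables, which give gene intervals without exons or UTRs.

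Gremlin 1, an antagonist of the DAN family that binds BMP2, BMP4 and BMP7, was the most abundant of the 10 genes in 3 libraries. Grem1 (ENSMUSG00000074934, mm9 chr2:113586320-113598803) had 326 FPKM in the library labelled cKO, 239.6 in that labelled Het, 68.4 in LacZ-positive cells and 132 in LacZ-negative ones. Within both pairs it had the order of Nog, and its LacZ-positive value was again the lowest of the 4. The log2 difference of 0.44 in the first pair lay inside the central 95% of the genes of at least 5 FPKM on both sides, -0.50 to 0.61. The difference of -0.94 in the LacZ pair lay just past the lower bound of that pair, -0.91, and short of the 2-fold line. Relative to the median it was -0.77. Of the genes at 1 FPKM or more, 97.2% lay below Grem1 in the Het-labelled library and 90.1% in LacZ-positive cells.

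Follistatin binds activins tightly and some BMPs more weakly. Fst (ENSMUSG00000021765, mm9 chr13:115242469-115249159) had 56.5 FPKM in the library labelled cKO, 95.9 in that labelled Het, 110 in LacZ-positive cells and 92.0 in LacZ-negative ones. Across the 4 libraries, Fst was lowest in the cKO-labelled one, and its other values lay between 92.0 and 110 FPKM. Its log2 difference of -0.75 in the first pair was the largest in size among the 10 genes there and lay outside the central 95%, with 441 of 13014 measured genes below it. In the LacZ pair it was 0.26, or 0.43 relative to the median. In both pairs Fst stood on the opposite side of 0 from Nog and Grem1, also under each of the 3 other scalings tried.

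Ratios between genes of the same library do not depend on how libraries are scaled. Grem1 exceeded Fst 5.77-fold in the cKO-labelled library, 2.498-fold in the Het-labelled one and 1.43-fold in LacZ-negative cells. In LacZ-positive cells the ratio was 0.619, with Fst above Grem1. Of the summed FPKM of the 3 antagonist genes, Grem1 made up 79.6%, 67.4%, 37.1% and 52.9% in the cKO-labelled, Het-labelled, LacZ-positive and LacZ-negative libraries. The share of Fst was 13.8%, 27.0%, 59.9% and 36.9% in the same order. That of Nog was 6.63%, 5.58%, 3.09% and 10.2%. The ratio of Grem1 to Nog was 12.0, 12.1 and 12.0 in the first 3 of these libraries and 5.18 in LacZ-negative cells.

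**Figure D2:**
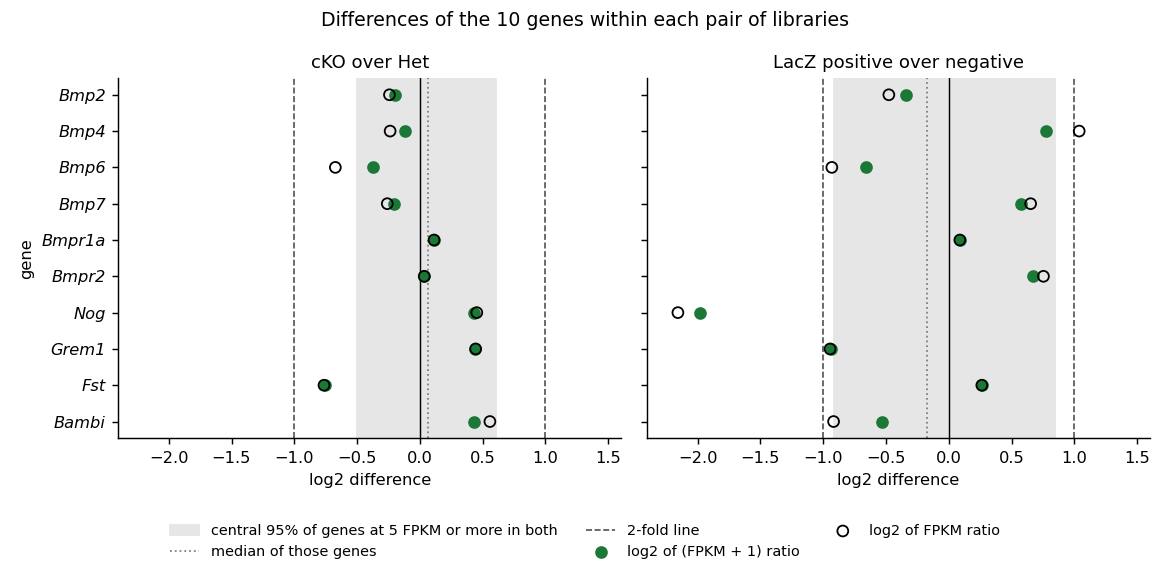
Log2 difference of each gene within the pairs (x axis), with the pseudocount of 1 FPKM (filled) and without it (open); grey marks the central 95% of genes with both values at 5 FPKM or more, the dotted line their median and dashed lines the 2-fold line. Nog at -1.98 in the LacZ pair is the only filled point past that line, and Fst at -0.75 is the lowest filled point of the first pair.

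The 4 ligand genes were low throughout. Bmp2 and Bmp4 encode closely related ligands, as do Bmp6 and Bmp7. Bmp2 (ENSMUSG00000027358, mm9 chr2:133377894-133388621) had 4.22 FPKM in the library labelled cKO, 4.99 in that labelled Het, 2.12 in LacZ-positive cells and 2.95 in LacZ-negative ones. Bmp7 (ENSMUSG00000008999, mm9 chr2:172693512-172765822) had 3.32, 3.98, 9.98 and 6.35 FPKM in the same order. Among these 4 ligand genes, Bmp2 was therefore the highest in the day 99 pair and Bmp7 in the day 24 pair. The ratio of Bmp7 to Bmp2 was 0.788 and 0.797 in the first pair, and 4.72 in LacZ-positive cells against 2.16 in LacZ-negative ones. Age, sex, strain and genotype differ together between the pairs and cannot be told apart.

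Bmp4 (ENSMUSG00000021835, mm9 chr14:46999088-47010344) had 0.872 FPKM in the library labelled cKO, 1.03 in that labelled Het, 4.26 in LacZ-positive cells and 2.08 in LacZ-negative ones. Bmp6 (ENSMUSG00000039004, mm9 chr13:38436994-38620693) had 0.969, 1.55, 1.75 and 3.35 FPKM in the same order. In LacZ-positive cells, then, Bmp4 and Bmp7 were above and Bmp2 and Bmp6 below the levels of LacZ-negative cells. The log2 differences were 0.77 for Bmp4, 0.58 for Bmp7, -0.34 for Bmp2 and -0.66 for Bmp6; relative to the median they were 0.94, 0.75, -0.17 and -0.49. At these levels the pseudocount compresses a ratio: the FPKM of Bmp4 differed 2.05-fold, and with a pseudocount of 0.1 its difference of 1.00 reached the 2-fold line. All 4 ligand genes had their lower value under the cKO label. The differences were -0.37 for Bmp6, -0.20 for Bmp7, -0.20 for Bmp2 and -0.12 for Bmp4. Bmp4 and Bmp6 reached the minimum of 1 FPKM only in the Het-labelled library, so their differences could only lie below 0. Of all genes measured in that pair, 39.1% lay below 0. The interval of Bmp6 also holds Txndc5, at 37.4 to 56.2 FPKM, so reads of that gene could enter the value of Bmp6. The neighbours in the interval of Bmp4, Gm15217 and Gm15222, were at 0.0424 FPKM or less.

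The promoters of Bmp4 and Bmp6 are shown because these ligand genes differed in opposite directions in the LacZ pair, and that of Grem1 because it was the highest of the 10 genes in 3 of the 4 libraries. Windows were available for 5 of the 10 genes (Bmp4, Bmp6, Bmpr1a, Bmpr2 and Grem1), from RefSeq on GRCm38.p6, and the 250 bases before the start of the gene are printed. They lie at chr14:46390670-46390919 on the minus strand for Bmp4, chr13:38345466-38345715 on the plus strand for Bmp6 and chr2:113758649-113758898 on the minus strand for Grem1. This build differs from that of the tables. Capitals mark the TCF/LEF cores CTTTGA and CTTTGT, the SMAD motif GGCGCC and the E-box CANNTG, searched on both strands; none of the marked matches overlap.
Bmp4: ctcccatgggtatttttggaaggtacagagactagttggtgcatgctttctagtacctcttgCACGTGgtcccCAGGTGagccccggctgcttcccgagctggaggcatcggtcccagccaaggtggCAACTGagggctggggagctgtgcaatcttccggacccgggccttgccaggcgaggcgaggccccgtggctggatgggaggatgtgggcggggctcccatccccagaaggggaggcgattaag
Bmp6: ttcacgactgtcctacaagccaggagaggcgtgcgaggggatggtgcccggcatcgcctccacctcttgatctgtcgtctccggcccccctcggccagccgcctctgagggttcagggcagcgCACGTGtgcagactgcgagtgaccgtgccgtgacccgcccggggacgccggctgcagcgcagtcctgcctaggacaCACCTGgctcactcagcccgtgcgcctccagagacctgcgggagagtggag
Grem1: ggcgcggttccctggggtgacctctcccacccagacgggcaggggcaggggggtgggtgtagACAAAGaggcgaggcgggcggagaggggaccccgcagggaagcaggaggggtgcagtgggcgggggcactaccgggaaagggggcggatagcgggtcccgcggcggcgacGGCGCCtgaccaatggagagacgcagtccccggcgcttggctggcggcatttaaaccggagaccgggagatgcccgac

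Grem1 holds 1 CTTTGT core, printed as its reverse complement 188 bases before the start, and 1 GGCGCC 78 bases before it. Bmp4 holds 3 E-boxes and Bmp6 holds 2, and neither has any of the other motifs. Bmpr1a and Bmpr2, not printed, have 1 GGCGCC each. Of the 32851 windows of 300 bases in the table, 16.0% held CTTTGA, 18.7% CTTTGT, 11.9% GGCGCC and 72.3% an E-box. The 5 windows were rich in G and C, from 59.3% to 79.3% against a median of 52.7% for all windows, with 12 to 48 CpG against a median of 7. These matches describe letters and show no binding.

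Bmpr1a (ENSMUSG00000021796, mm9 chr14:35223919-35316527), whose product is the main BMP type I receptor of the follicle epithelium, had 39.7 FPKM in the library labelled cKO, 36.7 in that labelled Het, 39.2 in LacZ-positive cells and 36.9 in LacZ-negative ones. All 4 values fell within a few FPKM of each other, and the log2 differences were 0.11 and 0.09 (0.26 relative to the median of the LacZ pair). A further gene in its interval, Gm17110, was at 0.113 FPKM or less. Bmpr2 (ENSMUSG00000067336, mm9 chr1:59821480-59927703), the gene of the type II partner receptor, had 11.01, 10.7, 10.4 and 6.19 FPKM in the same order. Across the 4 libraries, Bmpr2 was thus lowest in LacZ-negative cells. The log2 difference was 0.67 in that pair, or 0.84 relative to the median. For cKO over Het it was 0.03, with a sign that turned under each other scaling (-0.02 to -0.06). Bmpr1a stood 3.42 to 3.76 times above Bmpr2 in 3 libraries and 5.97 times above it in LacZ-negative cells.

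Bambi resembles a type I receptor without a kinase domain and dampens BMP and TGF-β signals. Bambi (ENSMUSG00000024232, mm9 chromosome 18, 3507954 to 3516402) had 4.27 FPKM in the library labelled cKO, 2.90 in that labelled Het, 1.01 in LacZ-positive cells and 1.91 in LacZ-negative ones. Its log2 differences were 0.43 and -0.53 (-0.36 relative to the median). It therefore stood on the same side of 0 as Nog and Grem1 in both pairs, at levels where the pseudocount weighs heavily.

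Counted over the 10 genes, 5 were above and 5 below 0 in each pair. In the first pair the minimum left Bmp4 and Bmp6 only the side below 0. In the first pair no gene reached the 2-fold line in either direction (13014 genes measured, with the shares past the line given above). The median difference was -0.04, against 0.06 for all measured genes. In the LacZ pair 0 of 10 lay past it on the higher side and 1 of 10 on the lower, beside 4.67% and 2.60% of all 13283 genes measured. The median was -0.13, the same to 2 decimals as that of all measured genes. As a group of 10, the genes thus gave no shared direction in either pair. Under centring, the genes of the LacZ pair past the line changed from 620 higher and 346 lower to 804 and 224, or from 64.2% to 78.2% higher; with upper-quartile scaling and with the summed FPKM of larger features the share was 79.1% and 82.3%. Nog kept its side of the line under each of these scalings, at -1.72 to -1.81.

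**Figure D3:**
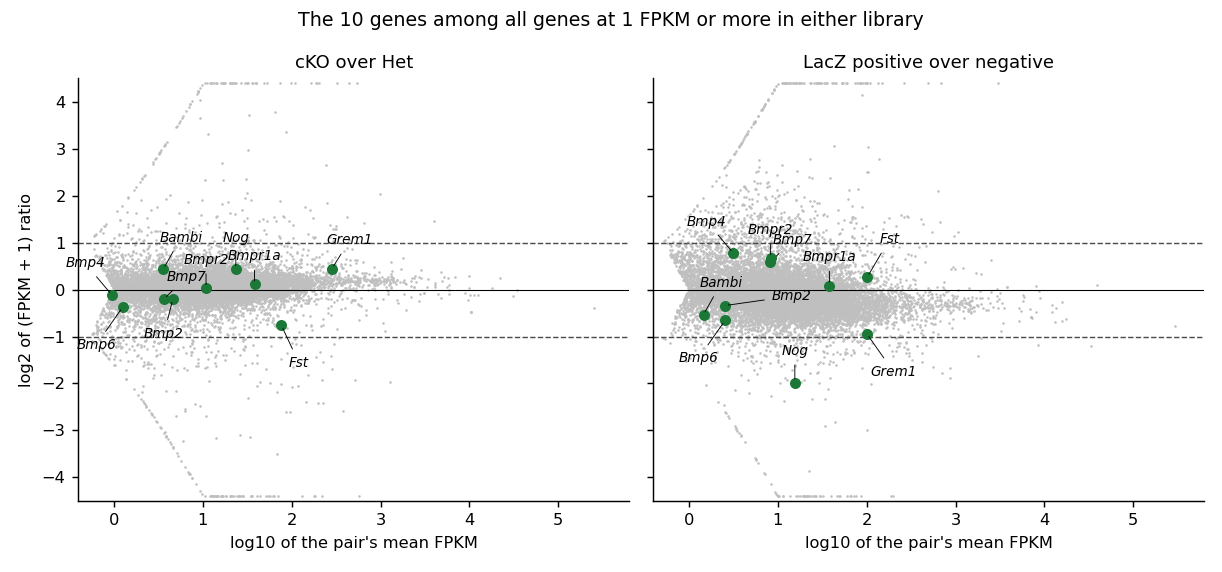
Log2 difference (y axis) against the log10 mean FPKM of the pair (x axis) for all measured genes (grey) and the 10 genes (green); dashed lines mark 2-fold, and 95 genes of the first pair and 104 of the LacZ pair beyond 4.4 are drawn at the edge. Nog lies below the bulk of genes of its level in the LacZ pair, and Grem1, at -0.94 there, lies short of the 2-fold line. Fst lies at the lower edge of the cloud in the first pair.

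Because Nog alone passed the line, the genes closest to it over both differences were looked up among 9276 genes. These were above 0 in all libraries, at 5 FPKM or more in at least 1, and had no small RNA, Gm or Rik names. The nearest were Fam132a (0.39 and -1.89), the frizzled receptor gene Fzd9 (0.53 and -2.04) and Ddit4l (0.47 and -2.20). Their distances from Nog were 0.10, 0.11 and 0.22 on the log2 scale. Fzd9 was also close in level, at 15.8, 10.6, 5.44 and 25.5 FPKM in the cKO-labelled, Het-labelled, LacZ-positive and LacZ-negative libraries. The measure rests on 2 differences from 4 libraries.

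A list of 60 other genes of the pathway was read in the same way. It was drawn up with earlier results of these data known, so its counts are a description. Of the 60, 35 were measured in each pair. Past the 2-fold line were 1 higher and 1 lower gene of the first pair, and 0 higher and 9 lower genes of the LacZ pair. Of those 9, 7 were response genes. Of all genes measured, 1.80% were higher and 2.29% lower in the first pair, and 4.67% and 2.60% in the LacZ pair. Medians of the listed genes were -0.04 and -0.39 (-0.22 relative to the median of the LacZ pair). Of 16 other ligand genes, 3 reached 1 FPKM in either library of the first pair and 4 in the LacZ pair. Gdf10, a BMP3-related ligand, had the highest mean of them and was the single one past the line, at 5.56 FPKM under the cKO label against 17.3 under the Het label (log2 difference -1.48). LacZ-positive cells had 85.9 FPKM of it and LacZ-negative ones 154 (-0.84). The activin and inhibin subunit genes Inhbb and Inha lay between 3.77 and 12.9 FPKM, with differences of -0.29 to 0.31.

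Of 10 receptor and co-receptor genes, 8 and 7 were measured and none differed by 2-fold. The activin receptor gene Acvr1b and the co-receptor genes Rgma and Rgmb had the highest means over the 4 libraries, at 15.9 to 30.01 FPKM, with differences of -0.08 to 0.45. Among 18 genes of secreted antagonists and their modulators, 9 and 8 were measured. For cKO over Het 8 of 9 were above 0 (median 0.21). In the LacZ pair 7 of 8 were below (median -0.40, or -0.23 relative to the median of the LacZ pair). Over all measured genes, 60.9% were above 0 in the first pair and 63.4% below 0 in the LacZ pair. Nbl1, a further DAN family antagonist, had 214, 174, 71.9 and 141 FPKM in the libraries labelled cKO, Het, LacZ-positive and LacZ-negative. Its differences of 0.30 and -0.96 had the order seen for Grem1. Crim1, a membrane-bound binder of BMPs, gave 0.21 and -0.42. Sostdc1, an antagonist of BMP and Wnt signals, had the highest mean of the list, with 120, 219, 414 and 629 FPKM in that order, and was lower in the first library of both pairs (-0.86 and -0.60). Fstl1, a follistatin-like protein gene, was at 39.0 against 18.7 FPKM in the first pair (1.02, or inside the line under each other scaling), and at 45.04 and 48.3 in the LacZ pair.

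Of the 8 signal transduction genes, 2 were lower by 2-fold in the LacZ pair, where 2.60% of all measured genes were. None differed by 2-fold in the first pair. Smad4, whose product partners the receptor-activated SMADs, was at 27.5 to 32.6 FPKM with differences of -0.10 and 0.00. Smad1 and Smad5, of the BMP-activated SMADs, had differences between -0.18 and -0.10 in both pairs. The inhibitory Smad7 was at 13.7 against 28.5 FPKM in the LacZ pair and Smad9 at 2.71 against 6.44, differences of -1.01 and -1.002 that lay inside the line relative to the median. The 8 response genes were all measured in the LacZ pair, all lay below 0, and 7 reached the 2-fold line. Their median was -1.36 (-1.19 relative to the median of the LacZ pair). Of all measured genes of that pair, 63.4% lay below 0 and 2.60% were lower by at least 2-fold. Id3, which encodes an inhibitor of bHLH transcription factors, had 163 FPKM in LacZ-positive cells and 438 in LacZ-negative ones. Id1 was at 56.7 and 148 and Id2 at 168 and 404. Msx2 was at 2.26 and 7.69, Msx1 at 3.38 and 10.6, Hey1 at 1.24 and 4.72 and Atoh8 at 10.7 and 22.6. In every case the LacZ-positive value was the lower one. Atoh8 had a difference of -1.01 and lay inside the line relative to the median. For cKO over Het 7 of the 8 were measured, with differences of -0.80 to 0.39, a median of 0.03 and none past the line. Of the 3 antagonist genes, Nog and Grem1 were lower in LacZ-positive cells, as these response genes were, and Fst was higher.

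**Figure D4:**
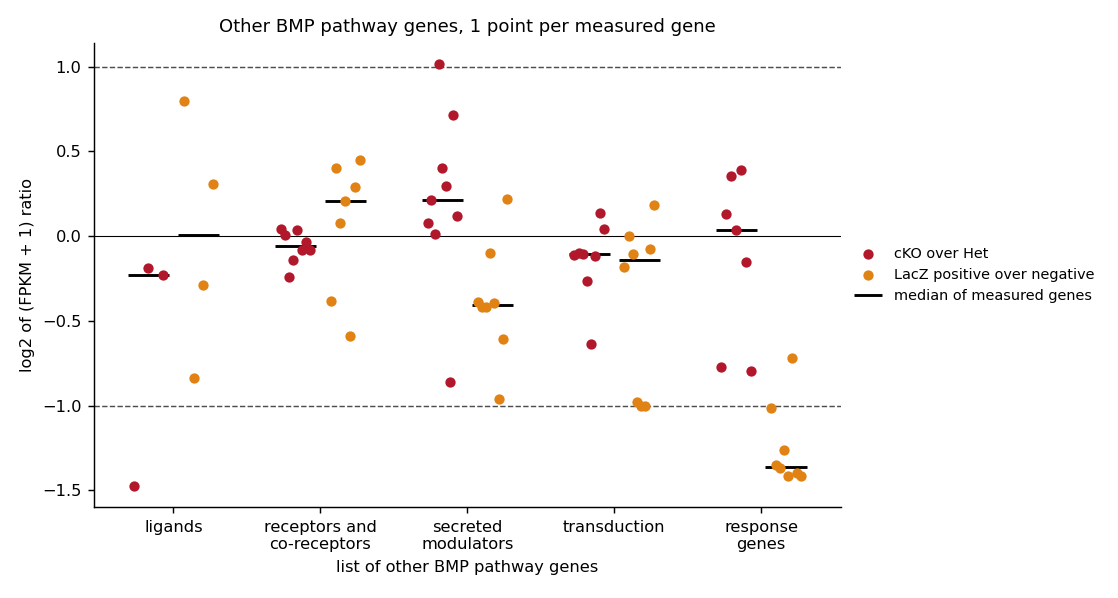
Log2 difference (y axis) of the other measured BMP pathway genes by list, with cKO over Het in red, LacZ-positive over LacZ-negative in orange and black bars for medians. The response genes of the LacZ pair, with a median of -1.36, are the list that lies mostly past the dashed 2-fold line.

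Markers of other cells were read beside Nog and Grem1. The keratin 6 positive cells of the inner bulge and companion layer (Krt6a, Krt6b, Krt75 and Fgf18, all measured) summed to 487 FPKM under the cKO label, 209 under the Het label, 199 in LacZ-positive cells and 564 in LacZ-negative ones. This sum, mostly Krt6a, had the same order within both pairs as Nog and Grem1. So did 3 of its 4 genes, while Krt75 was at 8.94 and 9.28 FPKM in the first pair. Of the 9 bulge markers, 5 had that order (Cd34, Sox9, Lhx2, Tcf7l1 and Krt5), with Cd34 at 752, 645, 223 and 516 FPKM. Nfatc1 had the opposite order, and Itga6 and Krt14 were higher in LacZ-positive cells. Each side of that order is common, with 60.9% of all measured genes above 0 in the first pair and 63.4% below 0 in the LacZ pair. The share of all genes with both was not computed, so these counts show no likeness beyond it. The bulge sum was 17314 and 13995 FPKM in the first pair and 14493 and 11527 in the LacZ pair, where Krt15 was listed at 0 in LacZ-negative cells. The summed upper follicle markers (Lgr6, Lrig1 and Krt79 of 4 listed) had the opposite order to Nog and Grem1, at 57.8 and 78.5, and at 436 and 154. In the first pair that sum followed Lgr6 (2.04 and 26.2 FPKM), and Lrig1 was on the side of Nog and Grem1, at 37.2 and 30.7. Hair germ markers summed to 40.6 and 67.3, and to 47.1 and 60.1, with Lef1 under 1 FPKM in every library and Msx2 shared with the response genes. The part of these cells in the differences of Nog and Grem1 was not tested.

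Dermal cells, a known source of BMP ligands and antagonists in skin, had low marker levels. Of 7 fibroblast markers, 2 or 3 reached 1 FPKM in a library, with sums of 23.1, 14.8, 10.9 and 18.1 FPKM in the cKO-labelled, Het-labelled, LacZ-positive and LacZ-negative libraries. Col1a1 and Col1a2 made up most of these sums and had the order of Nog and Grem1, Dcn was higher in LacZ-positive cells (2.16 and 0.423), and Pdgfra, Pdgfrb, Lum and Col3a1 were at 0.204 FPKM or less everywhere. Lum was listed at 0 in the Het-labelled and LacZ-positive libraries and Pdgfrb in the cKO-labelled one. Dermal papilla markers summed to 27.2, 11.8, 5.70 and 5.79 FPKM, mostly through Crabp1 in the first pair and Hhip in the LacZ pair. Alpl, Corin, Vcan and Sox18 stayed under 1 FPKM, with Alpl and Sox18 listed at 0 in the cKO-labelled and Sox18 in the Het-labelled library. Both sums were higher in the cKO-labelled library, as Nog and Grem1 were, and the fibroblast sum was lower in LacZ-positive cells. Endothelial and smooth muscle markers stayed under 1 FPKM in every library, as did 3 of 4 adipocyte markers. Of 5 leukocyte markers, Cd68 and Cd74 reached 1 FPKM. Cd68, at 5.20, 2.39, 1.02 and 1.90 FPKM, had the order of Nog and Grem1. Cd74, at 2.92, 2.37, 3.26 and 1.30 FPKM, was on the other side in the LacZ pair, as was the leukocyte sum, at 4.55 and 3.46. Melanocyte markers summed to 28.4 to 47.2 FPKM and nerve markers to 2.07 to 5.20, neither with that order. The part of these cells was not tested either.

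**Figure D5:**
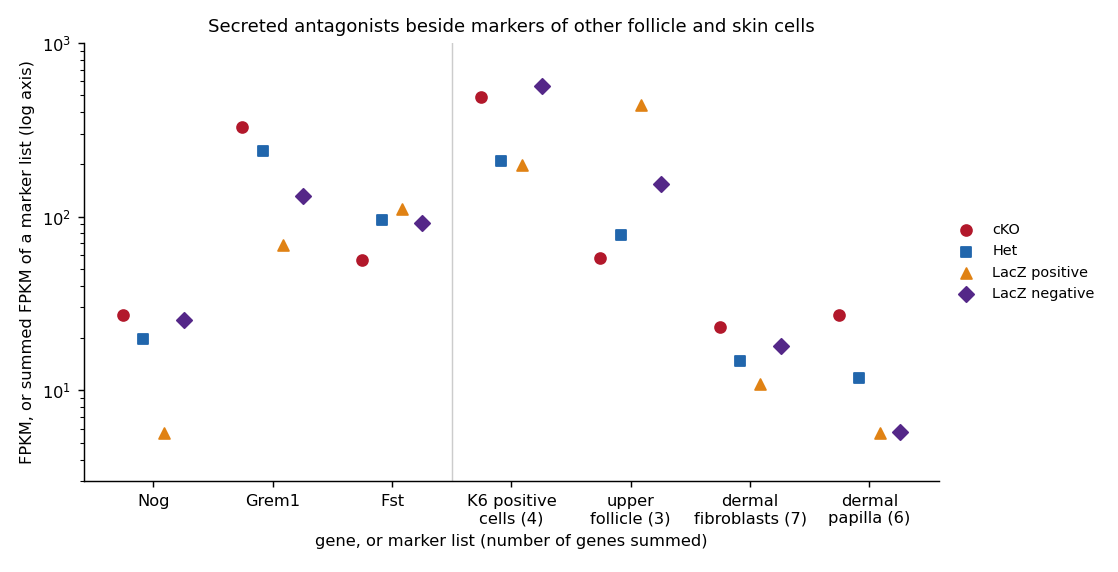
FPKM of Nog, Grem1 and Fst and summed FPKM of marker lists (log axis), 1 point per library, with the number of genes summed in parentheses. The keratin 6 sum (199 in LacZ-positive cells, 564 in LacZ-negative ones) has the order of Nog and Grem1 within each pair, and the upper follicle sum the opposite order.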

How the data were processed

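RNA of 4 sorted populations was used, 1 library each, in 2 pairs taken from the sample labels. The values deposited by the authors are FPKM, per the file headers, in 2 gene tables of 32091 rows, and in the first also a log2 fold change of cKO over Het. That deposited log2 value of the authors lay within 0.01 of the log2 of the plain FPKM ratio for all 10 genes and was not used further. Named without roles in the submitters' processing notes are Cufflinks 2.1.1, TopHat2 2.0.4 and TopHat, and the builds mm9 and GRCm38. Coordinates were taken as mm9, since chromosome 7 reaches 152509964, beyond the last GRCm38 gene end of 145324059. Settings for strand and shared reads are not stated in the sources used here.

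Rows of a symbol were summed, after 25 symbols turned into dates were restored from Ensembl identifiers. Log2 ratios used a pseudocount of 1 and a minimum of 1 FPKM in either library. Scripts ran on Python 3.11.15, numpy 2.4.6 and pandas 2.3.3. The calling step was tried on a library against its own copy with chosen genes changed, without noise. That trial checks the arithmetic and shows nothing about calls between different libraries. As alternatives the pseudocount was set to 0.1 or 5, the minimum was dropped or raised to 5, and values were recomputed with centring, upper-quartile scaling, scaling to the summed FPKM of larger features, or the highest row per symbol. Named genes were all 10 genes, other pathway genes past the 2-fold line or among the 3 most abundant of their list, and the 3 genes nearest to a member past the line; further markers, and Txndc5 and the Gm genes, were named after their values were seen. The members and lists were chosen with earlier results of these data known.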

Additional observations from a re-analysis of the deposited data

How the results depend on the processing

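The differences of the 10 genes, their medians and their counts past the 2-fold line were recomputed under 8 alternatives. So were the counts of other pathway genes past that line. Levels, list medians, marker sums and nearest genes were not put through all of these alternatives. With no replicates, a median or a gene's difference was taken as moved when it shifted by over 1.5-fold, changed sign or, for a gene, crossed the 2-fold line. Of the differences of the 10 genes, 72 of 75 in the first pair and 75 of 76 in the LacZ pair did not move. These counts include dropping or raising the minimum and taking the highest row, which could not change the difference of any of these genes. A minimum of 5 FPKM leaves 5 of the 10 genes in the first pair and 6 in the LacZ pair. The exceptions were Bmpr2 in the first pair under the 3 other scalings (-0.04, -0.02 and -0.06) and Bmp4 in the LacZ pair with a pseudocount of 0.1 (1.00). With that pseudocount 1 of the 10 genes was higher by 2-fold or more in the LacZ pair, in place of 0. The median of the 10 genes turned from -0.04 to 0.11 in the first pair at a minimum of 5. In the LacZ pair it turned from -0.13 to 0.17 at that minimum, to 0.042 with centring, to 0.056 with upper-quartile scaling and to 0.12 with the sum of larger features. Among other pathway genes, the first pair had 2 lower with a pseudocount of 0.1 in place of 1, and 0 higher in place of 1 (Fstl1) with a pseudocount of 5 and under each other scaling. The LacZ pair had 1 higher with a pseudocount of 0.1 in place of 0. In place of 9 lower it had 3 with a pseudocount of 5 and 5 with the sum of larger features. It had 6 lower with centring and with upper-quartile scaling, 8 at a minimum of 5 and 10 with a pseudocount of 0.1. The cause was not tested. Depth is unknown, so genes near 1 FPKM, such as Bmp4 and Bmp6 in the first pair and Bambi in the LacZ pair, carry the least precise ratios. No library can be left out, since each group has 1.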
